A study of Mus musculus with 7 samples.

Results

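The 10 genes described here belong to blood vessel endothelium and were followed across 7 cultured fetal mouse kidneys: Gja4, Sox17, Sox18, F2rl3, Tek, Tie1, Kdr, Flt1, Pecam1 and Emcn. They were taken by symbol from the deposited tables, where each of the 10 had 1 entry, out of 22367 gene symbols kept, and all 10 were among the 13466 genes tested. Every kidney came from strain C57BL/6 and had beta-catenin, through which canonical Wnt signals act, in an activated form. The labels give 3 as E2-2 deleted and 4 as E2-2 wildtype, so the comparison is of E2-2 loss on an activated background, and no kidney without activated beta-catenin was analysed here. Pregnant mice had received tamoxifen at 10.5 days post coitum, 2 mg per 40 g of body weight, and kidneys dissected at 10.5 days post coitum grew on membranes for 3 to 4 days. The labels name neither the Cre line nor the alleles, and they do not say which kidney was cultured for 3 and which for 4 days, or if the libraries stem from different animals or cultures. E2-2, the product of Tcf4, is an E protein, a class of transcription factors that bind the E-box CANNTG.

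Endothelial cells of the early kidney form a plexus around the ureteric bud and the nephron progenitors, and in culture this plexus receives no blood flow. Its growth depends on VEGF-A, which signals mainly through Kdr (VEGFR2), while Flt1 (VEGFR1) binds the same ligand tightly and limits its signal. Angiopoietins act through the receptor Tek (Tie2), of which Tie1 is a partner with no established ligand of its own. Sox17 and Sox18 are SoxF transcription factors of endothelium, and Sox17 is known for its part in arterial identity. Gja4 (connexin 37) forms gap junctions of arterial endothelium, and F2rl3 (PAR4) is a thrombin receptor of endothelium and platelets. Pecam1 is a junctional adhesion molecule of all endothelium, and Emcn (endomucin) a sialomucin mainly of veins and capillaries.

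Promoter sequences are shown for the 3 genes whose levels did not overlap between the genotypes. They are RefSeq sequences on build GRCm38.p6, from 250 bases before to 50 bases after the gene start, written 5′ to 3′ on the strand of the gene, and capitals mark each match to the E-box CANNTG. The table held 7 of the 10 genes; Sox17, Sox18 and Pecam1 were not among them. The promoters are Gja4 (chr4:127313990-127314289, minus strand), F2rl3 (chr8:72761409-72761708, plus strand) and Tek (chr4:94739039-94739338, plus strand).
Gja4: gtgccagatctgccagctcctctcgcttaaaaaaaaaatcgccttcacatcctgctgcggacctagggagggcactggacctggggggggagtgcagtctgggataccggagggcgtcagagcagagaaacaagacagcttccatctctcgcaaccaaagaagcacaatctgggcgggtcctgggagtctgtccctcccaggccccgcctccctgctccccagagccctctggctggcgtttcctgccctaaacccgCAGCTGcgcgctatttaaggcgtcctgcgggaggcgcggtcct
F2rl3: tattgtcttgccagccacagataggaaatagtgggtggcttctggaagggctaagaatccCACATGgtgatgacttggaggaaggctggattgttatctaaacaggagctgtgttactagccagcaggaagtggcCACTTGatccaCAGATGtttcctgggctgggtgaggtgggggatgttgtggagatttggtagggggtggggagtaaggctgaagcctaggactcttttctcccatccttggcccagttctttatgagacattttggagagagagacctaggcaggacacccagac
Tek: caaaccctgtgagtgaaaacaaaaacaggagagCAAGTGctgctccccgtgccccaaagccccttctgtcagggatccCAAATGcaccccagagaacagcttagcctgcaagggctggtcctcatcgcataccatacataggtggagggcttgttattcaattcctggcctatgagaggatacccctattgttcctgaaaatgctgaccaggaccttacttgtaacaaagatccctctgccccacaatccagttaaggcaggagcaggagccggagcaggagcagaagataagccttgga

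A CANNTG match was present in 6 of the 7 promoters, Flt1 being the exception, and in 72.3% of the 32851 promoters of the same length in the table. Gja4 had 1 match, CAGCTG, a motif held by 16.3% of all promoters. F2rl3 had 3 matches and Tek 2, against a mean of 1.39 over all promoters, and the form CAGGTG was found in 0 of the 7 promoters and in 20.2% of all. The ETS motif AGGAAG was present in 4 of 7 (Emcn, Tie1, Flt1, F2rl3; 35.4% of all), the ETS motif CCGGAA in 1 of 7 (Kdr; 14.9%) and the SOX motif AACAAT in 3 of 7 (Emcn, Tek, F2rl3; 10.7%). AACAGGAA, a FOX and ETS motif, was present in 1 of 7 (Emcn, where it overlaps an AGGAAG match; 2.65%). Both strands were searched; CAGGTG and CAGCTG are themselves CANNTG matches. These matches are a description of letters and were not related to the levels.

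Levels are FPKM, fragments scaled to transcript length and to library size, which can be compared between genes. Differences are deleted minus wildtype on the log2(FPKM + 1) scale, with the standard error (SE) of a limma fit over all genes. The targeted gene Tcf4 was at 33.5, 41.7 and 42.0 FPKM in deleted and 48.8, 58.1, 28.7 and 39.2 FPKM in wildtype libraries. Its groups overlapped (difference -0.12, SE 0.23; limma adjusted p = 0.885), so its level over the whole gene does not check the genotype labels, and which exons the deletion removes is not given; deleted and wildtype below are the labels' terms. The 10 genes were chosen with this contrast in view, so their values are described and not tested. With limma, 0 of 13466 genes passed an adjusted p of 0.05, which is 0.0%. At an unadjusted p under 0.05, 443 genes (3.29%) were higher and 162 (1.2%) lower in deleted kidneys. The inferred depth was 14.6 to 26.6 mega-fragments per library. The names of 4 deposited tables begin with BI (deleted replicates 1 and 2, wildtype replicates 1 and 2) and those of 3 with BM (deleted replicate 3, wildtype replicates 3 and 4); what the prefix stands for is not given, and differences within each prefix are printed beside the pooled ones. Deleted replicate 2 stood apart from the rest in kidney markers, and wildtype replicate 3 was the low end of a spread in endothelial level. Deleted replicate 2 had a summed level of 10 fetal kidney markers of 75.6 FPKM, against 183 to 315 in the other 6 libraries, with Six2, a nephron progenitor factor gene, at 2.69 FPKM. Wildtype replicate 3 had the lowest summed level of 27 pan-endothelial genes outside the 10, at 526 FPKM (595 to 1008 in the others). For each of the 10 genes the difference is also given without each of these libraries.

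**Figure D1:**
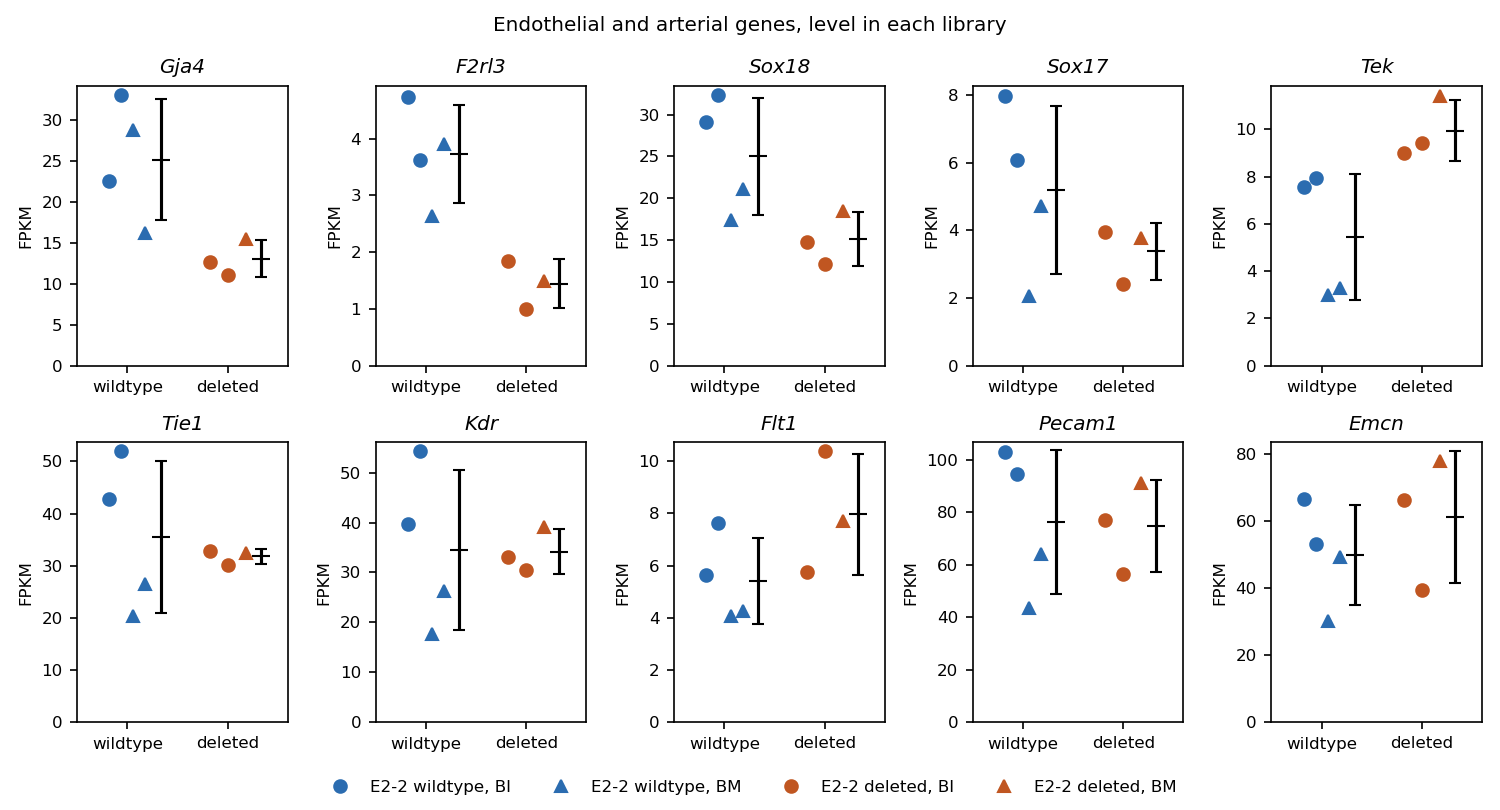
Level in FPKM (vertical axis, from 0) of each of the 10 genes in each library, wildtype on the left and deleted on the right of each panel; circles are BI and triangles BM libraries, and the black mark is the mean with its SD. Gja4 and F2rl3 are lower and Tek is higher in all 3 deleted libraries with no overlap, and the other 7 genes overlap.

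The arterial connexin gene Gja4 (chromosome 4, 126988665 to 126991222 in the deposited tables, which name no build) was lower in every deleted kidney. It was at 12.6, 11.1 and 15.5 FPKM in deleted replicates 1 to 3 and at 22.5, 33.0, 28.8 and 16.2 FPKM in wildtype replicates 1 to 4. Deleted replicate 3 and wildtype replicate 4, both BM, were nearest to each other, and wildtype replicate 2 was highest. Gja4 averaged 13.1 ± 2.19 FPKM in deleted (SD, n = 3) and 25.1 ± 7.34 in wildtype kidneys (SD, n = 4). On the log2 scale this is -0.86 (SE 0.24), or -1.14 in BI and -0.46 in BM libraries. The difference was -0.76 without deleted replicate 2 and -0.78 without wildtype replicate 3.

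F2rl3, the thrombin receptor gene (chromosome 8, 75285779 to 75287784), was the lowest of the 10 in both genotypes and also did not overlap. Its levels were 1.85, 0.996 and 1.49 FPKM in deleted and 4.74, 3.62, 2.64 and 3.90 FPKM in wildtype libraries. It averaged 1.45 ± 0.430 FPKM in deleted (SD, n = 3) and 3.72 ± 0.862 in wildtype kidneys (SD, n = 4), a ratio of 2.57 in favour of wildtype. The log2 difference was -0.95 (SE 0.20; -1.11 within BI, -0.76 within BM), -0.81 without deleted replicate 2 and -1.06 without wildtype replicate 3. The width of the deposited intervals gives 28 to 138 fragments per library for this gene, so its counting error is the widest of the 10. Platelets also carry this receptor, and their part in its level was not tested. Itga2b, the platelet integrin, was at 0.599 ± 0.0753 (SD, n = 3) against 0.527 ± 0.0311 FPKM (SD, n = 4), and Gp6 was listed at 0 in all 7 libraries. The 10 platelet markers summed to 6.45 to 13.5 FPKM in deleted and 5.22 to 10.1 in wildtype libraries. Pf4, a platelet chemokine gene also found in some macrophages, was at 7.45 ± 3.37 (SD, n = 3) against 4.03 ± 2.05 FPKM (SD, n = 4), and 2 of the 10 markers reached the minimum for testing.

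Tek, the angiopoietin receptor gene (chromosome 4, 94405991 to 94541630), went the other way. It was at 9.01, 9.42 and 11.4 FPKM in deleted and at 7.54, 7.93, 2.99 and 3.27 FPKM in wildtype libraries. The 2 BI wildtype libraries lay just under the deleted ones and the 2 BM wildtype libraries far below. Tek averaged 9.94 ± 1.26 FPKM in deleted (SD, n = 3) and 5.43 ± 2.67 in wildtype kidneys (SD, n = 4). The log2 difference of 0.86 (SE 0.32) was 0.23 within BI and 1.58 within BM. It was 0.89 without deleted replicate 2 and 0.66 without wildtype replicate 3. Of the 10 genes, 2 were thus lower and 1 was higher in every deleted library, beside 2.05% and 2.84% of all genes tested; the genes were picked on these values, so nothing is read from the count.

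The SoxF genes had lower means in deleted kidneys with overlapping groups. Sox18 (chromosome 2, 181404542 to 181406345) was at 14.8, 12.1 and 18.5 FPKM in deleted and 29.1, 32.4, 17.4 and 21.1 FPKM in wildtype libraries. Only deleted replicate 3 reached into the wildtype range, above wildtype replicate 3. The difference was -0.66 (SE 0.23), -1.14 within BI and -0.04 within BM. It was -0.52 without deleted replicate 2 and -0.82 without wildtype replicate 3. Sox17 (chromosome 1, 4481009 to 4486494) was at 3.94, 2.41 and 3.78 FPKM in deleted and 7.97, 6.07, 2.06 and 4.71 FPKM in wildtype libraries, a difference of -0.42 (SE 0.35). Its sign turned between the prefixes, at -0.96 within BI and 0.19 within BM, and the difference was -0.25 without deleted replicate 2, -0.72 without wildtype replicate 3 and -0.21 without wildtype replicate 1. Sox7, the third SoxF gene, averaged 19.6 ± 2.76 in deleted (SD, n = 3) and 19.9 ± 8.30 FPKM in wildtype kidneys (SD, n = 4; limma adjusted p = 0.957).

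The VEGF receptor genes and Tie1 overlapped between the genotypes. Kdr (chromosome 5, 76329299 to 76374453) was at 33.0, 30.5 and 39.1 FPKM in deleted and 39.7, 54.3, 17.7 and 26.2 FPKM in wildtype libraries. The deleted libraries sat between the BI and BM wildtype libraries, and the difference of 0.10 (SE 0.34) was made of -0.54 within BI and 0.83 within BM. Kdr differed by 0.17 without deleted replicate 2 and, with the sign turned, by -0.17 without wildtype replicate 3; without wildtype replicate 2 it was 0.35. Flt1 (chromosome 5, 148373772 to 148537564) was at 5.76, 10.4 and 7.72 FPKM in deleted and 5.64, 7.64, 4.07 and 4.27 FPKM in wildtype libraries. Its highest level was in deleted replicate 2, and the difference was 0.49 (SE 0.24; 0.21 within BI, 0.75 within BM). It was 0.30 without deleted replicate 2 and 0.39 without wildtype replicate 3. Tie1 (chromosome 4, 118143796 to 118162454) was at 32.8, 30.1 and 32.4 FPKM in deleted, a narrow band, and at 42.8, 52.1, 20.4 and 26.5 FPKM in wildtype libraries. Its difference was -0.06 (SE 0.30; -0.57 within BI, 0.46 within BM). Leaving out deleted replicate 2 gave -0.03, wildtype replicate 3 gave -0.29 and wildtype replicate 2 turned the sign to 0.15. Tek and Tie1, whose products work as partners, thus had differences of 0.86 and -0.06.

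The general endothelial genes showed the same split of the wildtype libraries by prefix. Pecam1 (chromosome 11, 106515532 to 106576595) was at 77.0, 56.3 and 91.1 FPKM in deleted and 103, 94.5, 43.5 and 64.0 FPKM in wildtype libraries. The difference was 0.02 (SE 0.31), at -0.58 in BI and 0.78 in BM libraries. It was 0.21 without deleted replicate 2 and -0.22 without wildtype replicate 3, on either side of 0. Emcn (chromosome 3, 137004042 to 137094033) was at 66.3, 39.5 and 77.9 FPKM in deleted and 66.4, 53.2, 30.2 and 49.1 FPKM in wildtype libraries. The difference was 0.29 (SE 0.31), at -0.21 in BI and 1.00 in BM libraries. It was 0.58 without deleted replicate 2, 0.08 without wildtype replicate 3 and 0.09 without deleted replicate 3, so that single libraries set its size. In 8 of the 10 genes both BM wildtype libraries were lower than both BI wildtype libraries, the exceptions being Gja4 and F2rl3. Wildtype replicate 3 was the lowest of all 7 libraries in 7 genes. The sign of the difference turned between the prefixes in 5 genes: Sox17, Kdr, Pecam1, Emcn and Tie1. These counts were not made over all genes tested, so nothing particular to the 10 genes is read from them. In bulk tissue fewer endothelial cells and less RNA per endothelial cell cannot be told apart.

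**Figure D2:**
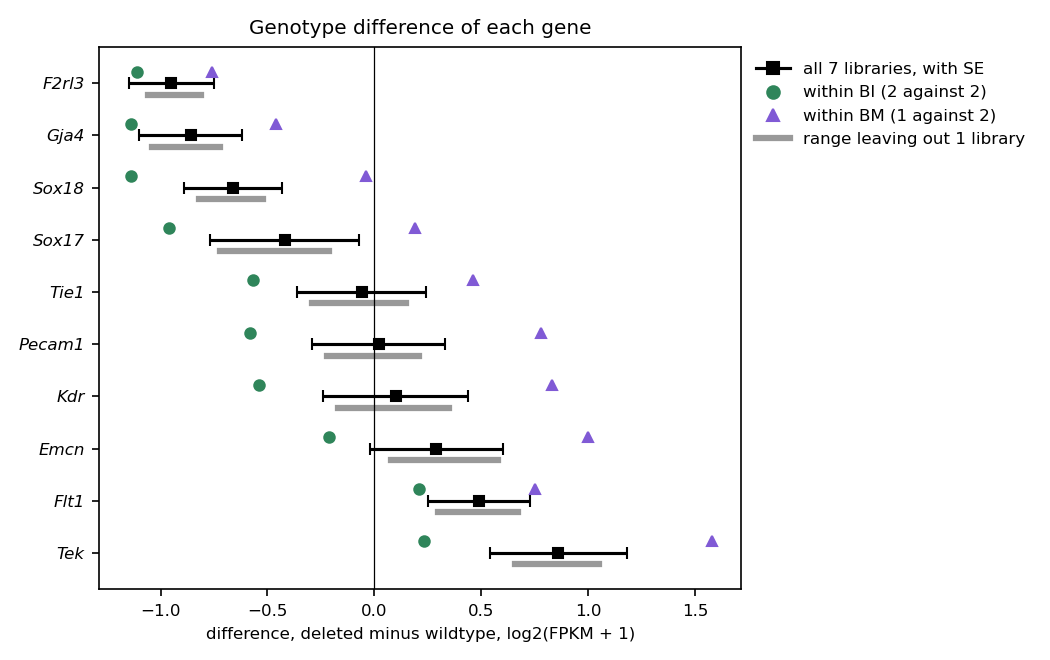
Genotype difference in log2(FPKM + 1), deleted minus wildtype (horizontal axis), of each of the 10 genes: squares with SE for all 7 libraries, circles within BI, triangles within BM, grey bars the range when each library is left out in turn. F2rl3 and Gja4 are negative and Tek and Flt1 positive in both prefixes, Sox18 is near 0 within BM (-0.04), and the other 5 genes lie on opposite sides of 0.

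By level, Pecam1 was the highest in both genotypes and F2rl3 the lowest. In wildtype kidneys the order was Pecam1, Emcn, Tie1, Kdr, Gja4, Sox18, Tek, Flt1, Sox17 and F2rl3. The ranges of neighbours overlapped at every step except the drop from Sox18 (17.4 to 32.4 FPKM) to Tek (2.99 to 7.93 FPKM). In deleted kidneys Kdr stood before Tie1 and Sox18 before Gja4, and the range of Gja4 (11.1 to 15.5 FPKM) overlapped that of Tek (9.01 to 11.4 FPKM).

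Within a genotype most of the 10 genes varied together, Gja4 least. Each level was taken as its deviation from the mean of its genotype, so that the contrast itself plays no part. The name prefix was not taken out, so the r given here include the split of the wildtype libraries between BI and BM. The Pearson r of a gene with the mean of the other 9 over the 7 libraries was 0.97 for Sox18, 0.96 for Kdr and Pecam1, 0.94 for Tek and Tie1, 0.87 for Sox17, 0.78 for Emcn, 0.59 for F2rl3, 0.42 for Flt1 and 0.23 for Gja4. The 45 pairs ranged from -0.22 (Gja4 and F2rl3) to 0.98 (Kdr and Tie1) with a median of 0.70. All points share their 7 libraries, and these r are descriptions.

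Other endothelial lists shared this variation to differing degrees. Of 27 other pan-endothelial genes, 21 (77.8%) had an r above 0.8 with the mean deviation of the 10, as did 8 of 17 other arterial and Notch genes (47.1%), 10 of 18 endothelial transcription factor genes (55.6%) and 5.27% of all 13456 other genes tested. The count was 3 of 9 for venous and lymphatic genes, 0 of 3 for other connexin genes and 0 of 12 for thrombin receptor and coagulation genes. It was 0 of 8 for leukocyte markers, 0 of 10 for fetal kidney markers and 3 of 12 for mural cell markers. The 10 genes most like the set, by r over 7 libraries, were Cyyr1, Efnb2, She, Plekhg1, Cldn5, Esam, Scarf1, Prkch, Pcdh17 and Vash1, with r of 0.99 to 1.00. All 10 overlapped between the genotypes. Of all genes tested only 2.05% lay lower and 2.84% higher in every deleted library, so nothing is read from this. Efnb2, an arterial ephrin gene, was at 37.7 to 47.6 FPKM in deleted and 27.4 to 57.0 FPKM in wildtype libraries (limma difference 0.08, SE 0.25, adjusted p = 0.934). Cyyr1 was at 4.50, 3.86 and 5.15 FPKM in deleted and 5.42, 5.49, 2.79 and 3.49 FPKM in wildtype libraries (0.09, SE 0.22, adjusted p = 0.917).

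**Figure D3:**
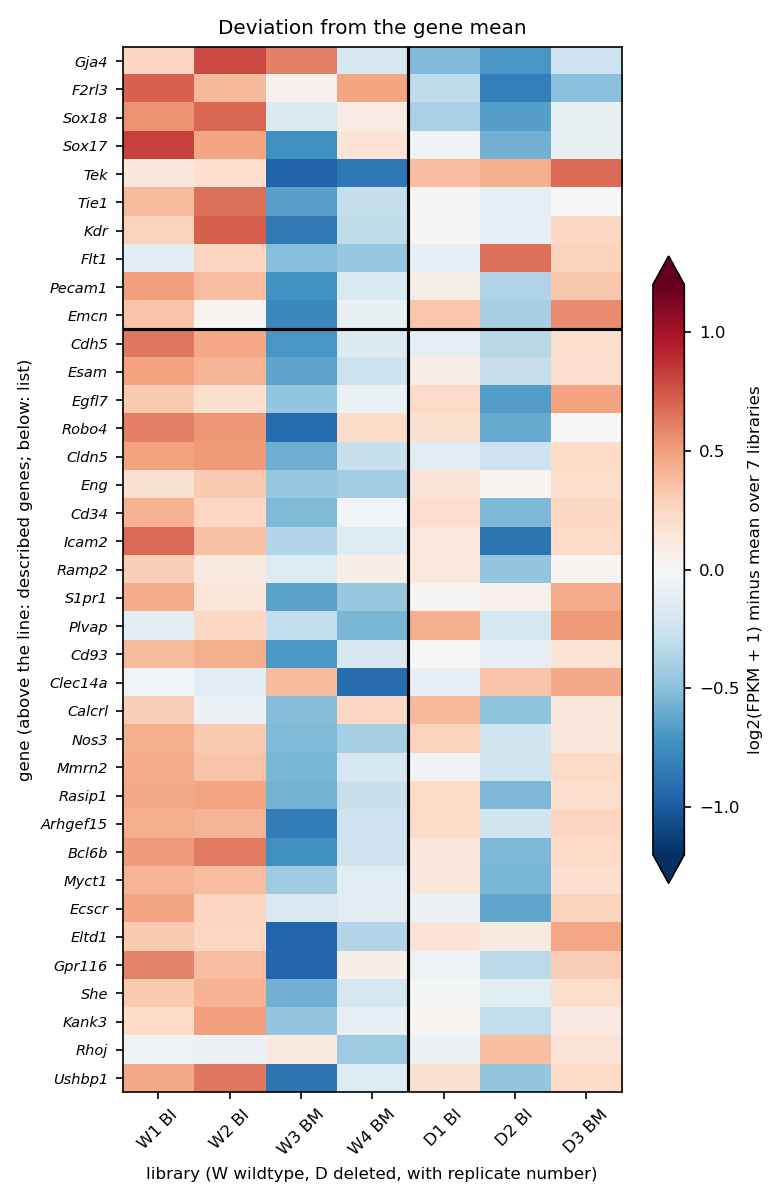
Deviation of log2(FPKM + 1) from the mean over 7 libraries (colour) for the 10 genes above the horizontal line and 27 other pan-endothelial genes below it, by library (W wildtype, D deleted, with replicate number and name prefix). Most genes below the line are high in W1 and W2 and low in W3, while Gja4 and F2rl3 are low in all 3 deleted libraries and Tek is high in them.

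Other pan-endothelial genes had no common direction over all 7 libraries, but nearly all went 1 way within BI and the opposite way within BM. Of 27 tested, 13 had a positive and 14 a negative difference, beside 5292 positive and 8174 negative of all 13466 genes tested. Of the 27, 0 passed limma's adjusted threshold and 0 had an unadjusted p under 0.05. Their median difference was -0.02, beside -0.05 over all genes tested, made of -0.50 within BI and 0.62 within BM. Of the 27, 24 were negative within BI and 27 were positive within BM, beside 8901 and 6923 of all 13466 genes tested. Most of the 27 varied together, and deleted replicate 3 is the only deleted BM library, so the genes are not separate observations. Cdh5, the endothelial cadherin gene, averaged 90.9 ± 16.8 in deleted (SD, n = 3) and 106 ± 41.5 FPKM in wildtype kidneys (SD, n = 4; limma adjusted p = 0.901). The tight junction gene Cldn5 was at 46.5 ± 8.70 against 51.3 ± 18.8 FPKM and the adhesion gene Esam at 39.1 ± 6.57 against 40.7 ± 14.6. Eng, the gene of a TGF-beta co-receptor, differed by 0.22 (SE 0.21; limma adjusted p = 0.798).

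Set against this common level, 4 of the 10 genes separated the genotypes. For each library the mean log2(FPKM + 1) of the 27 genes was subtracted from that of each gene. This mean itself differed by 0.02, made of -0.45 within BI and 0.61 within BM, which the subtraction takes from every gene. Within a genotype Gja4 varied little with the 27 genes (r = 0.32, against 0.77 for F2rl3), so its values within each prefix carry that shift. After the subtraction Gja4 was at -0.65 in deleted and 0.24 in wildtype kidneys on average, a difference of -0.88 (-0.69 within BI, -1.07 within BM). F2rl3 differed by -0.97 (-0.66 and -1.37), Sox18 by -0.69 (-0.69 and -0.65) and Tek by 0.83 (0.67 and 0.98). The groups did not overlap for these 4 genes, 3 below and 1 above, where 0.423% of all genes tested lay below and 1.14% above by the same measure; the choice of the genes used this contrast, so nothing is read from the count. The other 6 overlapped: Sox17 differed by -0.44, Flt1 by 0.46, Emcn by 0.27, Tie1 by -0.09, Kdr by 0.07 and Pecam1 by -0.00. Gja4, Sox17 and F2rl3 were also averaged, a grouping made for this comparison and not an arterial identity read from these data. Within a genotype Gja4 varied with neither F2rl3 (r = -0.22) nor Sox17 (r = -0.06), while Sox17 and F2rl3 varied together (r = 0.9). The mean of these 3 genes relative to the 27 genes was -2.01, -2.01 and -2.14 in deleted libraries. In wildtype libraries it was -1.40, -1.38, -1.12 and -1.25. The difference was -0.76 (-0.62 within BI, -0.95 within BM), and -0.80 to -0.71 when each library was left out in turn; its sign follows from the choice of Gja4 and F2rl3 on this contrast.

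**Figure D4:**
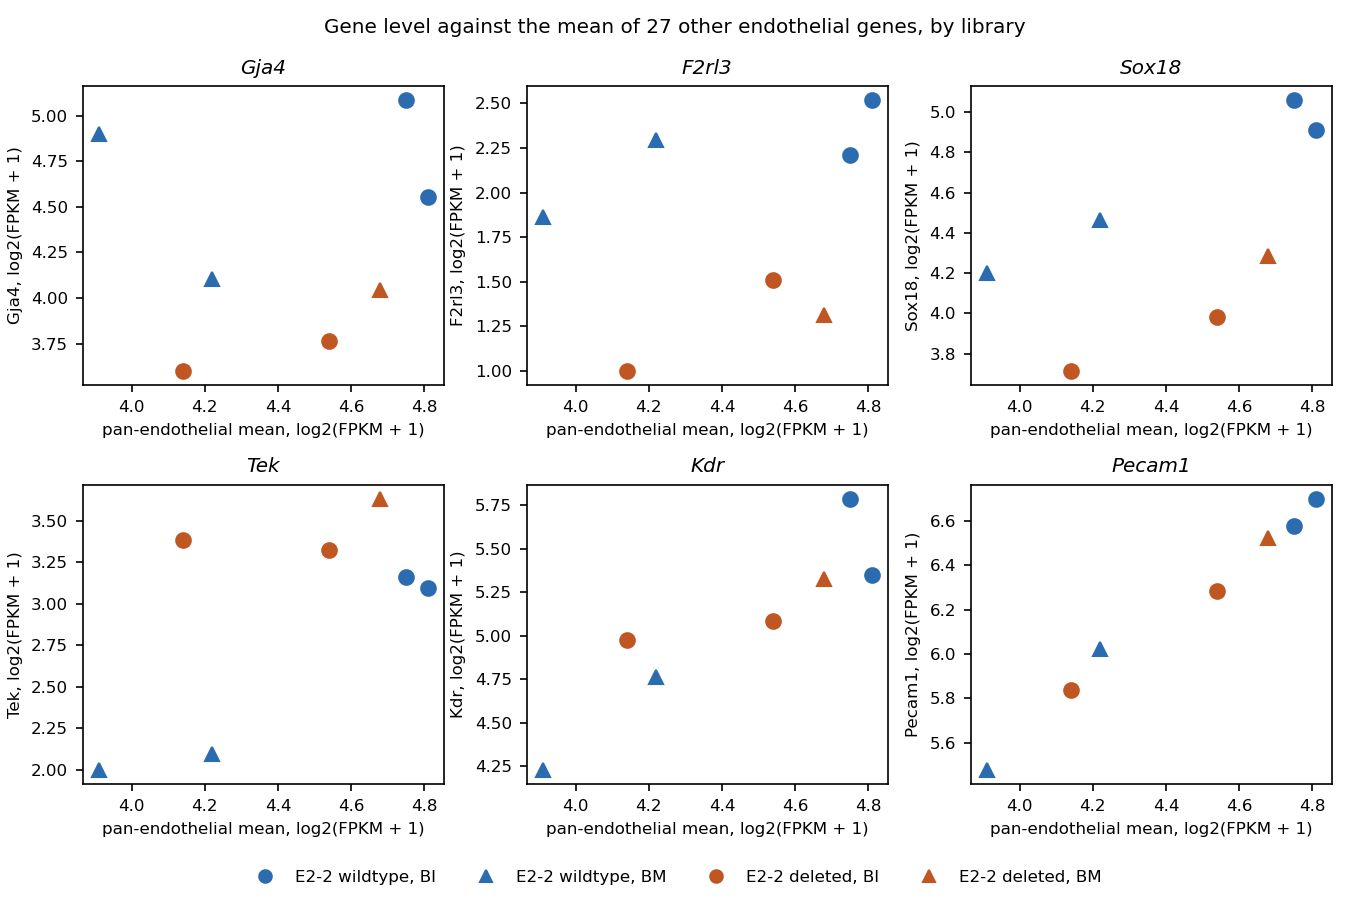
Log2(FPKM + 1) of 6 of the genes (vertical axes, not starting at 0) against the mean log2(FPKM + 1) of 27 other endothelial genes (horizontal axes), 1 point per library; circles are BI and triangles BM. For Gja4, F2rl3 and Sox18 the deleted libraries lie below wildtype libraries of like endothelial mean, for Tek above, and for Kdr and Pecam1 both genotypes lie along one band.

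Arterial and Notch genes outside the 10 did not all share the pattern of Gja4 and F2rl3. Of 17 other arterial and Notch genes tested, 11 had a negative and 6 a positive difference. This is near the split of all 13466 genes tested, 8174 negative and 5292 positive, so nothing is read from the count. Their median was -0.15 (-0.52 within BI, 0.31 within BM), and 0 of the 17 passed limma's adjusted threshold. Hey1, a Notch target, had the smallest p of the list: it was at 20.1, 13.7 and 25.9 FPKM in deleted and 27.4, 29.3, 34.8 and 25.8 FPKM in wildtype libraries. Its groups overlapped only through deleted replicate 3 and wildtype replicate 4 (difference -0.57, SE 0.21, and -0.34 without deleted replicate 2; unadjusted p = 0.0244, limma adjusted p = 0.795). Notch4, the endothelial Notch receptor gene, was at 9.92 ± 1.66 against 14.0 ± 4.53 FPKM, a difference of -0.42 (SE 0.25; limma adjusted p = 0.795), and the chemokine receptor gene Cxcr4 at 49.7 ± 22.5 against 73.2 ± 17.6 FPKM, a difference of -0.64 (SE 0.36; limma adjusted p = 0.795). Cxcr4 was lowest in deleted replicate 2, at 23.9 FPKM, and differed by -0.19 without it. The Notch ligand gene Dll4 was at 24.4 ± 7.03 against 27.8 ± 10.6 FPKM and Jag1, another ligand gene, differed by -0.15 (SE 0.17; limma adjusted p = 0.815). Gja5, the other arterial connexin gene, had a positive difference of 0.54 (SE 0.49), which was 0.09 to 0.77 over the libraries left out, lowest without wildtype replicate 4. Relative to the 27 pan-endothelial genes, 3 of the 17 (Notch4, Cxcr4 and Mecom, the last named after its values were seen) were lower in every deleted library and 0 were higher. Over all genes tested 0.423% were lower and 1.14% higher. Those shares include genes that do not vary with the 27, to which the subtraction adds the spread of their mean (SD 0.43 in wildtype libraries). Nothing is thus read from the count. The separation was not particular to arterial genes. Icam2 and Myct1 of the 27 themselves and the mural marker Mcam were also lower. Eltd1 of the 27, Aplnr, Gata2 and Lmo2 were higher, as Tek was. Icam2, Myct1 and Lmo2 were named after their values were seen. Before the subtraction Mecom differed by -0.36 (SE 0.25), and by -0.04 without deleted replicate 2.

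Venous and lymphatic genes held the largest positive difference among the vascular lists. Aplnr, the apelin receptor gene of veins and sprouting vessels, was at 16.4, 27.7 and 22.6 FPKM in deleted and 7.77, 16.9, 1.84 and 2.40 FPKM in wildtype libraries. Its groups overlapped through deleted replicate 1 and wildtype replicate 2, and, as for Tek, the BM wildtype libraries were lowest (difference 1.87, SE 0.61; 0.83 within BI, 2.93 within BM; unadjusted p = 0.0164, limma adjusted p = 0.795). Nrp2, a VEGF-C co-receptor gene, differed by 0.90 (SE 0.34) and was highest in deleted replicate 2, at 42.1 FPKM; without that library the difference was 0.57. Lyve1, a hyaluronan receptor gene of lymphatic endothelium and some macrophages, was at 2.39 ± 1.07 against 1.19 ± 0.101 FPKM and higher in every deleted library (difference 0.58, SE 0.23, and 0.36 without deleted replicate 2; limma adjusted p = 0.795). Macrophages were not measured apart: the 8 leukocyte markers summed to 55.8 to 113 FPKM in deleted and 48.5 to 114 in wildtype libraries, and their part in the level of Lyve1 was not tested. The venous factor gene Nr2f2 was at 69.5 ± 15.4 against 85.7 ± 7.47 FPKM, and Ephb4 and Flt4 differed by -0.15 (SE 0.13) and -0.03 (SE 0.33). Of the 9 genes tested in this list, 4 had a positive and 5 a negative difference, with a median of -0.03.

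Ligand genes for the receptors among the 10 had differences of either sign. The VEGF gene Vegfa was at 60.4 ± 3.52 against 51.6 ± 8.98 FPKM (difference 0.24, SE 0.15, and 0.13 without wildtype replicate 3; limma adjusted p = 0.795) and Vegfc at 9.91 ± 1.07 against 9.49 ± 1.13 FPKM. Pgf, a ligand of Flt1 named after its values were seen, was at 41.9 ± 16.4 against 62.5 ± 29.0 FPKM. Its difference of -0.51 (SE 0.45; limma adjusted p = 0.795) turned sign between prefixes (-1.21 in BI, 0.41 in BM libraries); leaving out deleted replicate 2 gave -0.14. Angpt1, the activating ligand of Tek, was at 10.7 ± 1.55 against 8.98 ± 1.52 FPKM, and Angpt2, a context-dependent antagonist, at 17.9 ± 4.53 against 21.1 ± 3.34 FPKM. Ptprb, a phosphatase that acts on Tek, was at 6.74 ± 1.83 against 4.78 ± 1.53 FPKM (difference 0.43, SE 0.25, and 0.26 without deleted replicate 2; limma adjusted p = 0.795). Of 14 genes tested in the list of ligands and modulators, 10 had a positive difference, beside 5292 of all 13466 genes tested, and the median was 0.07. Of the 12 thrombin receptor and coagulation genes tested, 6 had a positive and 6 a negative difference. F2r, the gene of the thrombin receptor PAR1, was at 96.0 ± 15.6 against 122 ± 30.5 FPKM (difference -0.32, SE 0.21, and -0.18 without wildtype replicate 3; limma adjusted p = 0.795). Gnaq, a G protein subunit gene that acts downstream of such receptors, was at 37.5, 77.7 and 42.1 FPKM in deleted and 31.1 to 33.9 FPKM in wildtype libraries (difference 0.60, SE 0.23; limma adjusted p = 0.795), and 0.28 without deleted replicate 2.

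Among endothelial transcription factors, the ETS genes Erg and Fli1 differed by -0.07 (SE 0.28) and 0.04 (SE 0.19). Klf4, a Krüppel-like factor gene, was at 15.7 ± 2.60 against 9.62 ± 3.04 FPKM (difference 0.69, SE 0.25) and Gata2 at 29.7 ± 13.2 against 16.1 ± 5.92 FPKM (0.83, SE 0.34, highest in deleted replicate 2 and 0.50 without it), both at a limma adjusted p of 0.795. Foxc2 was at 16.1 ± 6.33 against 24.0 ± 3.96 FPKM (-0.61, SE 0.26; -0.28 without deleted replicate 2; limma adjusted p = 0.795). Of the 18 tested, 13 had a positive difference, beside 5292 of all 13466 genes tested, with a median of 0.07.

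Of the 10 fetal kidney markers 7 had a negative difference, beside 8174 of all 13466 genes tested. The median of the 10 markers was -0.61 (-0.48 within BI, -0.66 within BM) and -0.08 without deleted replicate 2. Of these markers, 0 passed limma's adjusted threshold and 0 had an unadjusted p under 0.05. The 12 mural cell markers summed to 974 to 2363 FPKM in deleted and 1072 to 2350 in wildtype libraries, highest in deleted replicate 2 and wildtype replicate 3. Pdgfrb, the pericyte receptor gene, was at 63.2 ± 9.57 against 66.9 ± 19.2 FPKM. Gja1, a connexin gene of mural and mesenchymal cells as well as endothelium, was at 139 ± 45.8 against 88.6 ± 12.9 FPKM (difference 0.60, SE 0.24, and 0.39 without deleted replicate 2; limma adjusted p = 0.795). Red cell genes summed to 8.56 FPKM in deleted replicate 2 and 538 in deleted replicate 3, and to 63.0 to 234 in wildtype libraries. The leukocyte gene Ptprc was at 3.64 ± 1.11 against 3.35 ± 0.582 FPKM. The part of these cells in the levels of the 10 genes was not tested.

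**Figure D5:**
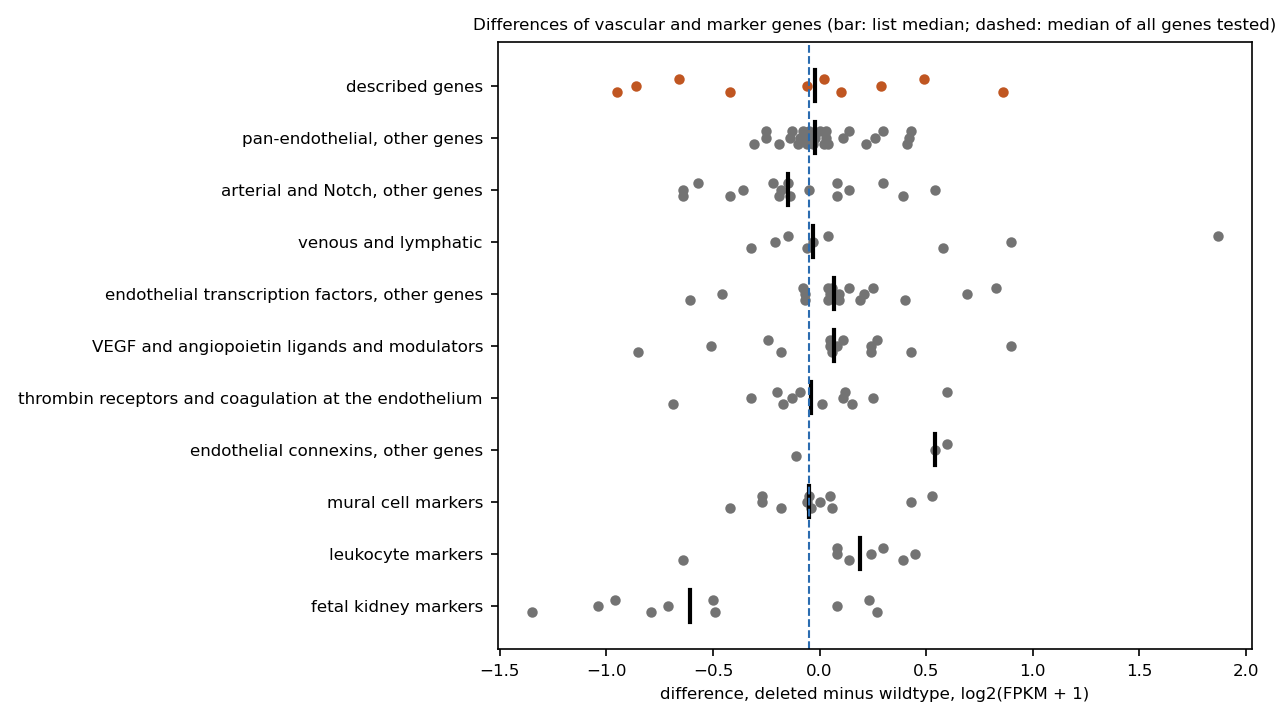
Genotype difference in log2(FPKM + 1), deleted minus wildtype (horizontal axis), of every tested gene of each list; points are genes, black bars list medians and the dashed line the median of all genes tested (-0.05). The 10 described genes spread from -0.95 (F2rl3) to 0.86 (Tek) around a median of -0.02, and the 27 other pan-endothelial genes lie around the same median.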

How the data were processed

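Poly-A RNA from 7 kidney cultures was sequenced, per the labels' protocols. The authors deposited 1 table per library with FPKM values and interval bounds per gene, per the file headers. Per the submitters' processing notes the tools included Cufflinks 2.0.2, TopHat2 2.0.4 and CASAVA 1.8.2, with no role stated; build and annotation: not given in the sources used here. Deposited starts are printed plus 1, since end minus start equalled the RefSeq gene length in 8691 of 20480 genes (528 with 1 added).

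Entries of one symbol were summed, small RNAs and symbols whose status was not OK in all 7 tables were left out, and genes with a mean of at least 1 FPKM were tested on log2(FPKM + 1) with limma 3.58.1 in R 4.3.3 (trend, 2-sided, Benjamini-Hochberg over 13466 genes, threshold 0.05), after a check on simulated data. Scaling to library size leaves low genes less precise in shallower libraries. No count test was run, since the tables hold no counts. Fragments were inferred from the interval widths (79.5% to 80.4% of low values within 0.05 of a whole number).

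The 10 genes and the lists were chosen with earlier results of these data known. Named genes were the 10 genes, a fixed set of vascular genes, the 3 genes of smallest p in each list and the 10 most alike. Replicate numbers follow the order of deposit. No label separates animals or cultures, so p-values reflect only how far these libraries differ from each other, possibly for technical reasons. Alternatives were another pseudocount, filter, scaling, library weights, the name prefix as a term and leaving out each library.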

Additional observations from a re-analysis of the deposited data

Results flagged for a closer look

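Among the 4 wildtype libraries, 2 of 73 named genes had a single library far from the other 3. The measure was the gap to the nearest other library as a share of the whole range. Chance sets apart about 1 in 20 groups, a rate that 2 of 73 does not exceed, so the 2 genes are only listed. Acta2, the smooth muscle actin gene, was at 1061 FPKM in wildtype replicate 3 against 379 to 486 in the other wildtype libraries (share 0.843). In deleted replicate 2 it was higher still, at 1158 FPKM. The globin gene Hbb-b2 was at 0.772 FPKM in wildtype replicate 4 and at 0.000801 or less in the others (share 0.999). It has near-identical copies, so its level is uncertain. No cause was tested. None of the 10 endothelial and arterial genes was set apart in this way.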

How the results depend on the processing

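With limma, 0 genes passed the adjusted threshold in every setting except a weight per library (1 gene) and no filter (4 genes), and none of the 10 genes was among those 5. Genes at an unadjusted p under 0.05 numbered 605, then 1143 with a weight per library, 394 at a minimum of 5 FPKM, 984 with no filter and 250 to 1473 when 1 library was left out (250 without deleted replicate 2, 336 without wildtype replicate 4, 1473 without deleted replicate 1). The median of the 10 genes was -0.02 in all libraries, -0.57 within BI and 0.61 within BM. For the other lists the values within BI and BM were -0.50 and 0.62 (pan-endothelial), -0.52 and 0.31 (arterial and Notch) and -0.24 and 0.49 (transcription factors). Within BM they were 0.61 for venous and lymphatic genes, 0.26 for ligands and 0.05 for thrombin receptor genes, whose median was -0.07 to 0.04 over the libraries left out. The 3 connexin genes gave 0.22 within BI, 0.84 within BM and 0.09 to 0.77 over the libraries left out, lowest without wildtype replicate 4. The mean of Gja4, Sox17 and F2rl3 relative to the pan-endothelial list differed by -0.76 (its sign follows from the choice of genes). It gave -0.93 with a pseudocount of 0.1, -0.62 within BI and -0.95 within BM. With Cdh5 alone as reference, chosen after seeing the data, it gave -0.60. F2rl3 differed by -1.32 with a pseudocount of 0.1. The cause of these shifts was not tested. No paired analysis was possible because the replicate numbers were given in accession order and tie no deleted kidney to a wildtype one. Depth limits F2rl3 most, at 28 fragments in its lowest library.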
